A study of Mus musculus with 12 samples.

Results

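Complement components and receptors were followed in sorted astrocytes and microglia of the mouse hippocampus. The set holds 9 genes (C1qa, C1qb, C1qc, C4b, C2, C3, Serping1, C3ar1 and C5ar1), matched by symbol to Ensembl identifiers, out of 27866 genes in the astrocyte count table and 30359 in the microglia count table, and all 9 were found in both tables. The set was chosen by function together with an earlier reading of these data, in which C4b was higher in microglia after astrocytic A2A receptor expression. The vector difference in microglia is therefore given below as a description, without a test, while the vector difference in astrocytes and the difference between the cell fractions were tested. The fraction test of C4b reused its microglial control values, so nothing is read from its p-value.

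Complement is a cascade of plasma proteins and receptors that tags surfaces for removal. In the classical pathway C1q, a hexamer of trimers built from the A, B and C chains, binds its target and activates the proteases C1r and C1s, which cleave C4 and C2. The C4 and C2 fragments form the convertase that cleaves C3, the protein on which all complement pathways converge. Serping1 encodes C1 inhibitor, which blocks C1r and C1s, and C3ar1 and C5ar1 encode the receptors for the small fragments C3a and C5a. In the brain, microglia are the main source of C1q, C3 and C4 can be made by reactive astrocytes, and C1q and C3 are known for tagging synapses that microglia then remove.

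The libraries come from male C57Bl6/J mice whose CA1 was injected on both sides, at an age of 2 months, with an AAV2/9-GfaABC1D vector. The vector encoded the murine A2A receptor (AAV-A2A) or, in the controls, GFP (AAV-GFP). Hippocampi were dissociated 2 months after the injection. GfaABC1D is an astrocyte-selective promoter, both groups received a vector, and uninjected mice were not part of these groups. Astrocytes were pulled from the dissociated hippocampi with magnetic beads against ACSA-2, an astrocyte surface antigen, and microglia from the cells left over with beads against CD11b, an integrin chain of myeloid cells. Each of the 4 groups (2 fractions, 2 vectors) holds 3 libraries, named here by vector and number. The labels do not state whether each library is a separate animal, although a legend of the study counts its expression values by animal, so the p-values measure the spread between these libraries. The sources used here do not say which ACSA-2 and CD11b libraries share animals, and the fraction p-values treat all libraries as independent.

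The total count on genes was 33937067 to 49217553 per ACSA-2 library and 36098295 to 53206974 per CD11b library. Levels below are CPM, the count scaled to an equal total for every library. Adora2a, the gene carried by the vector, was at 22.7 to 25.7 CPM in the AAV-GFP and 681 to 867 CPM in the AAV-A2A ACSA-2 libraries, and at 4.41 to 7.59 and 15.6 to 42.4 CPM in the CD11b libraries. The 14 astrocyte markers, led by Aldoc, summed to 38296.4 to 53345.5 CPM in the ACSA-2 libraries. The 14 microglia markers, led by Csf1r, summed to 10901 CPM in GFP-2328, 21013.8 CPM in GFP-2329 and 62425.1 CPM in GFP-2331, and to 63779.7, 56841.6 and 27711.2 CPM in A2A-2343, A2A-2344 and A2A-2347. GFP-2328, GFP-2329 and A2A-2347 stood apart: Ttr, the main transcript of the choroid plexus, reached 80536, 64058 and 27988 CPM there against 4.93 to 72.6 CPM in the other CD11b libraries. CD11b values are therefore also given without these 3 libraries. Fewer cells of a type in a suspension and less RNA per cell cannot be told apart in these bulk libraries.

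The first comparison asked in which fraction the complement genes were expressed, in AAV-GFP controls alone. The C1q chains and the anaphylatoxin receptors were higher in the CD11b fraction, whereas C4b, C3 and Serping1 were higher in the ACSA-2 fraction. Of the 9 genes, 5 rose and 3 fell from ACSA-2 to CD11b, and C2 did not pass the test (edgeR's quasi-likelihood test, adjusted p under 0.05 and |log2 FC| over 0.32). Over all 16980 genes tested, 13% were higher and 12.7% lower in CD11b by the same rule. The libraries of the fractions did not overlap for 8 of the 9 genes, and for 8611 of the 16980 genes in either direction. Fraction and count table cannot be told apart, since each fraction was deposited as a table of its own. The AAV-GFP libraries of this comparison are also the controls of both vector comparisons. The CD11b control values of C4b were thus among those that led to the set, and its place among the 3 lower genes is a description.

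C1qa, C1qb and C1qc lie side by side on the minus strand of chromosome 4 (GRCm38), at 136895917-136898803, 136880129-136886187 and 136889804-136893065. C1qb was at 132, 144 and 231 CPM in the ACSA-2 libraries 303, 306 and 307 of AAV-GFP, and at 2538, 5427 and 14772 CPM in the CD11b libraries GFP-2328, GFP-2329 and GFP-2331. The 3 CD11b values exceeded all ACSA-2 values, and the lowest and highest differed from each other by 5.82 times. The log2 FC was 5.49 ± 0.87 (SE, n = 3 libraries per fraction, edgeR adjusted p = 0.00695), a 45.0-fold difference. C1qa (log2 FC 5.56 ± 0.90, edgeR adjusted p = 0.00751) and C1qc (log2 FC 5.32 ± 0.86, edgeR adjusted p = 0.00742) rose with it. Their own levels in the CD11b controls ran from 932 to 5571 CPM for C1qa and from 1633 to 9515 CPM for C1qc, lowest in GFP-2328 and highest in GFP-2331 as for C1qb. The sum of the microglia markers had the same order, and its part in the C1q spread was not tested.

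Per kilobase of exon, the C1qb level was 6966 ± 5877 CPM per kb in CD11b controls (SD, n = 3), against 2681 ± 2360 for C1qa and 2486 ± 2156 for C1qc. The latter pair did not differ beyond its spread. The B chain exceeded the A chain within every library, by 2.65 to 2.92 times in counts in the CD11b controls and by 2.59 to 3.56 times in the ACSA-2 controls. Next in order per kilobase were C5ar1 (104 ± 91.2), C3ar1 (51.7 ± 28.6) and Serping1 (12.1 ± 2.79), where C5ar1 and C3ar1 overlapped, followed by C3 (1.15 ± 0.37), C4b (0.67 ± 0.41) and C2 (0.42 ± 0.34), and the last 3 did not differ beyond their spread. In the ACSA-2 controls the C1q chains also led, with 155 ± 49.7 CPM per kb for C1qb, 62.6 ± 18.0 for C1qc and 57.3 ± 24.9 for C1qa, ahead of Serping1 (32.2 ± 9.83), C4b (15.9 ± 2.21), C3 (9.38 ± 3.38), C5ar1 (5.55 ± 3.21), C3ar1 (2.21 ± 1.62) and C2 (0.45 ± 0.18). Neighbours in this order overlapped for C1qc and C1qa, C1qa and Serping1, C3 and C5ar1, C5ar1 and C3ar1, and C3ar1 and C2. The microglia markers summed to 365 to 619 CPM in these same 3 ACSA-2 libraries, and their part in the C1q level there was not tested.

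The promoters of C1qb and C1qc, whose counts moved together over the libraries, are shown beside that of C3, which was higher in ACSA-2 than in CD11b controls. The sequences are from RefSeq (GRCm38.p6) and hold the bases before each gene's start, 5′ to 3′ on the minus strand, at chr4:136886201-136886450 for C1qb, chr4:136893066-136893164 for C1qc and chr17:57228137-57228386 for C3. Starts are those of RefSeq. For C1qc the GENCODE gene reaches 151 bases further upstream than the RefSeq start, so only the 99 bases of the window outside it are printed. Capitals mark matches to the PU.1 motif, a motif of a myeloid transcription factor.
C1qb: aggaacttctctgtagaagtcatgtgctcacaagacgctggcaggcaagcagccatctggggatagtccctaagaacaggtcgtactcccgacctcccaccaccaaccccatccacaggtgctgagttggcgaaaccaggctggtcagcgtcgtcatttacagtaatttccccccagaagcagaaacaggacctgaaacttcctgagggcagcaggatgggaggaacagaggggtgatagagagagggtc
C1qc: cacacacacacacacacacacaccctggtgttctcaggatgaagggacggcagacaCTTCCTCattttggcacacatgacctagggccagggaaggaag
C3: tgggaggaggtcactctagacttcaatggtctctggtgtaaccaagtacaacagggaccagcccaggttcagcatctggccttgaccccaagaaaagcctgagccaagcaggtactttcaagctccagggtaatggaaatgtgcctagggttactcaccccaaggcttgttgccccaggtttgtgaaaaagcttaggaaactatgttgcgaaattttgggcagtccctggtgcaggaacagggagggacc
Both strands of the 250 bases before the start were searched for 3 motifs in the 5 promoters that were matched (C1qb, C1qc, C3, C3ar1 and C5ar1). The PU.1 motif (GAGGAAG) was found in C1qc, 194 to 188 bases before the RefSeq start, and in 10.61% of all 32851 promoters. The STAT motif (TTCNNNGAA, in 7.02% of all promoters) and the cyclic AMP response element (TGACGTCA, in 1.55%) were found in none of the 5. The motifs share no overlapping match here.

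C3ar1, the receptor for C3a (chr6:122847138-122856161), was at 10.03, 2.29 and 16.2 CPM in the ACSA-2 controls and at 121, 187 and 360 CPM in the CD11b controls. It rose by a log2 FC of 4.52 ± 0.85 (edgeR adjusted p = 0.0121). C5ar1, the receptor for C5a (chr7:16246743-16259540), was at 13.4, 6.45 and 22.9 CPM and at 92.4, 176 and 534 CPM, and rose by 4.24 ± 0.88 (edgeR adjusted p = 0.016). Both receptors were higher in every CD11b library than in every ACSA-2 library. Without GFP-303 the adjusted p was 0.0582 for C3ar1 and 0.0726 for C5ar1, and without GFP-306 it was 0.0628 for C5ar1, so these calls were lost although the log2 FC stayed between 3.89 and 4.58.

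C4b (chr17:34728380-34743882), the murine C4 gene of the cascade, went the other way. It was at 81.6, 105 and 84.8 CPM in the ACSA-2 controls and at 3.68, 1.55 and 6.25 CPM in the CD11b controls, and the groups did not overlap. The log2 FC from ACSA-2 to CD11b was -4.61 ± 0.61 (edgeR adjusted p = 0.0041). Nothing is read from this p-value, because the CD11b control values of C4b had been used to choose the set. C3 (chr17:57203970-57228136) was at 28.2, 56.7 and 59.8 CPM and at 4.08, 5.74 and 7.87 CPM (log2 FC -3.09 ± 0.47, edgeR adjusted p = 0.00627). Serping1 (chr2:84765387-84775444) was at 64.0, 59.3 and 101 CPM and at 35.3, 26.2 and 22.8 CPM (log2 FC -1.54 ± 0.28, edgeR adjusted p = 0.0108). All ACSA-2 values of these 3 genes exceeded all CD11b values, and 8611 of all 16980 genes tested had no overlap between the fractions. The Serping1 call was lost without GFP-307 (adjusted p = 0.0503) and without GFP-2329 (adjusted p = 0.0531). The C3 call was lost in the edgeR fit of all 12 libraries with vector as a covariate (log2 FC -1.32, adjusted p = 0.133).

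C2 (chr17:34862604-34898265), the protease that joins C4 in the convertase, was the lowest of the set, at 25 to 131 counts per library over all 12 libraries. Its log2 FC between fractions was -0.10, with a 95% interval from -2.16 to 1.97. Of the 50-base stretches of its transcripts, 41.5% also occur in Gm20547, a readthrough gene on the same strand, or in Zbtb12 on the opposite strand, and the authors' counting dropped reads that fell on overlapping genes, so the C2 count is uncertain. C4b shares 34.6% of its 50-base stretches with its paralog C4a, whose count was 0 to 19 per library against 61 to 4568 for C4b. For the other 7 genes every 50-base stretch was unique among annotated transcripts.

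**Figure D1:**
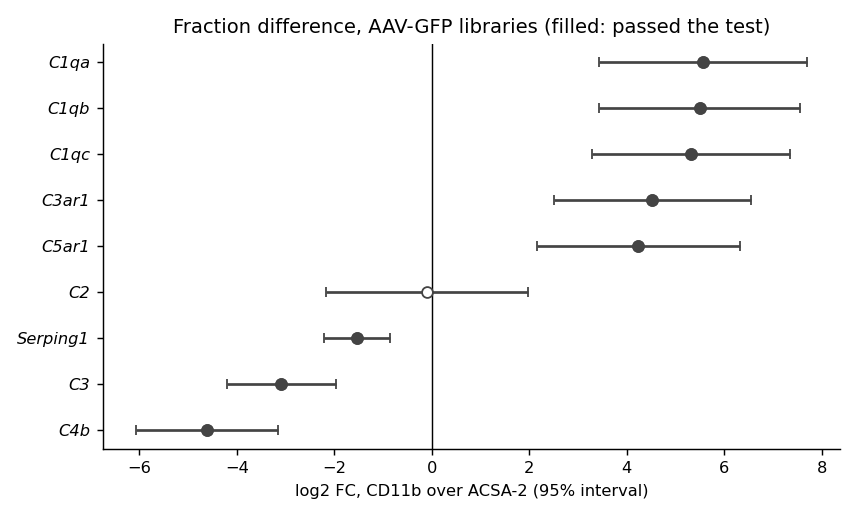
Log2 FC of each complement gene, CD11b over ACSA-2 in the AAV-GFP libraries (x axis, log2 scale), with the 95% interval of edgeR's fit as bars and n = 3 libraries per fraction. Filled points passed the test: C1qa, C1qb, C1qc, C3ar1 and C5ar1 lie right of 0, and C4b, C3 and Serping1 left of it, while the interval of C2 spans 0. Nothing is read from the test of C4b, whose CD11b control values had been used to choose the set.

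The size of these fraction differences moved with the control libraries. Leaving out GFP-2331, the CD11b control with the most microglia transcripts, lowered the log2 FC of C1qa to 4.35, of C1qb to 4.36, of C1qc to 4.13, of C3ar1 to 3.81 and of C5ar1 to 3.03, and brought C4b to -5.33 and C3 to -3.50. With GFP-2331 as the only CD11b control left, and assumed to vary like the ACSA-2 libraries, the C1qa value was 6.68, C1qb 6.58, C1qc 6.43, C3ar1 5.37, C5ar1 5.36, C4b -3.73, C3 -2.48 and Serping1 -1.58. The 8 genes kept their direction in all alternatives run for this comparison, and between 6 and 8 were called.

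Of 48 other complement genes listed by pathway, 26 were tested between fractions. Of these 6 were higher and 3 lower in CD11b, beside 13% and 12.7% of all genes tested. Among receptors, Itgb2, a chain of complement receptor 3, rose (log2 FC 6.66 ± 1.22, edgeR adjusted p = 0.0108). C5ar2, the second C5a receptor, also rose, from 0 to 0.26 CPM in the ACSA-2 controls to 8.99 to 47.2 CPM in the CD11b controls. Itgam, the other chain of complement receptor 3, is among the 6 higher genes (log2 FC 5.13 ± 0.86, edgeR adjusted p = 0.00835). It encodes CD11b, the antigen on which the fraction was selected, so its rise was set by the sort and nothing is read from its p-value. Itgb2 is the partner chain of that antigen, so nothing is read from the Itgb2 p-value either. Cd93, a C1q-binding lectin named after its values were seen, rose by 2.74 ± 0.67 (edgeR adjusted p = 0.0267). Of the regulators, Csmd3 went from 0.05 to 0.73 CPM in ACSA-2 to 20.7 to 41.6 CPM. Vtn, vitronectin, which blocks the terminal complex, fell by 2.29 ± 0.54 on the log2 scale (edgeR adjusted p = 0.0232), and Colec12, a collectin, by 1.39 ± 0.36 (edgeR adjusted p = 0.0308). Hc, the C5 gene, also named after its values were seen, fell by 2.11 ± 0.59 (edgeR adjusted p = 0.0397). Clu, clusterin (log2 FC -2.24), Cr1l, Crry (0.41), Cd55 (1.58) and Cd59a (3.04) did not pass. The count of 9 dropped to 5 without GFP-306, without GFP-307 or without GFP-2329, and went up to 13 without GFP-2331.

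The second comparison asked how the complement genes of astrocytes differed with the vector. None of the 9 genes passed edgeR's test in the ACSA-2 libraries (0 of 9, against 3.36% of all 16451 genes tested). At an unadjusted p under 0.05 edgeR had 1 of 9, C3, against 13% of all genes, and DESeq2 called 1 of 9, also C3, against 7.13%. None of the 9 genes had all AAV-A2A libraries on one side of all AAV-GFP libraries, which 19.3% of all genes did. The median log2 FC of the 9 genes was 0.20, and that of all genes tested 0.02.

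C3 had the largest difference of the set in astrocytes, and it was lower. Against 28.2, 56.7 and 59.8 CPM in the controls, in the order used above, the AAV-A2A libraries A2A-309, A2A-310 and A2A-313 were at 29.2, 12.4 and 9.39 CPM. A2A-310 and A2A-313 lay below all controls, and A2A-309 lay just above GFP-303. The log2 FC was -1.55 ± 0.42 (95% interval -2.49 to -0.61, edgeR adjusted p = 0.0966). The adjusted p was 0.00656 with DESeq2, 0.0357 in edgeR with no filter on low counts and 0.0229 without A2A-309, where the log2 FC was -2.13. In the other alternatives it lay between 0.0623 and 0.315, so the call on C3 depended on the tool, the filter and a single library.

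C4b in astrocytes was at 81.6, 105 and 84.8 CPM with AAV-GFP and 119, 104 and 92.8 CPM with AAV-A2A. Its log2 FC of 0.20 ± 0.18 had a 95% interval from -0.19 to 0.59 (edgeR adjusted p = 0.749). Counts of C4b per count of C3 were 1.42 to 2.89 in the AAV-GFP and 4.09 to 9.89 in the AAV-A2A libraries and did not overlap, a ratio computed after both genes had been seen. Serping1 was at 64.0, 59.3 and 101 CPM with AAV-GFP and 98.1, 98.3 and 65.7 CPM with AAV-A2A (log2 FC 0.20 ± 0.23, interval -0.32 to 0.72). C2 had a log2 FC of 0.39 ± 0.72 and an interval from -1.23 to 2.01.

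The C1q chains were lower in the ACSA-2 than in the CD11b libraries, and none of them passed the test for the vector. C1qb was at 132, 144 and 231 CPM with AAV-GFP and at 288, 276 and 118 CPM with AAV-A2A. A2A-309 and A2A-310 lay above all controls and A2A-313 below all of them. The log2 FC was 0.39 ± 0.31 for C1qb (interval -0.29 to 1.08), 0.52 ± 0.28 for C1qc (-0.11 to 1.15) and 0.17 ± 0.31 for C1qa (-0.54 to 0.87). C3ar1 (-0.35 ± 0.60, interval -1.69 to 0.99) and C5ar1 (-0.23 ± 0.47, -1.28 to 0.83) had wide intervals at 2.29 to 22.9 CPM, and both turned positive without GFP-307 (0.23 and 0.25). Without GFP-306 the C1qa value turned to -0.046. The summed microglia markers of these libraries were 365 to 619 CPM with AAV-GFP and 315 to 483 CPM with AAV-A2A. The mural and fibroblast list, led by Vtn, summed to 4806 to 5327 and 3505 to 5633 CPM, and the endothelial list to 2010 to 2201 and 1834 to 2905 CPM. The ependymal list stood at 1570 to 2135 and 672 to 2470 CPM, lowest in A2A-313, and the choroid plexus list at 710 to 894 and 903 to 1414 CPM. The part of these other cells in the ACSA-2 values was not tested.

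Of the other complement genes, 0 of 25 tested passed edgeR's test in astrocytes (3.36% of all genes did), and 2 had an unadjusted p under 0.05 (Cfp and Colec12, beside 13% of all genes). DESeq2, run without that filter, called 2 of 34 (Cfp and C1s2), beside 1277 of all 27866 genes. C1s2, a C1s protease gene, was not among the 25, and its counts were 0 in each control and 5, 111 and 12 with AAV-A2A, most of them in A2A-310. Cd93 was the 1 gene of the 25 without overlap between groups (19.3% of all genes), at 0.62 to 2.82 CPM with AAV-GFP and 2.89 to 4.32 CPM with AAV-A2A. Of these Cfp and C1s2 were named after their values were seen. Cfp, properdin, which stabilises the alternative convertase, was at 4.66, 3.90 and 6.73 CPM with AAV-GFP and 23.8, 20.8 and 4.37 CPM with AAV-A2A, and A2A-313 lay within the controls (log2 FC 1.62 ± 0.54, edgeR adjusted p = 0.198). Colec12 was at 62.8, 87.8 and 84.3 CPM with AAV-GFP and 63.1, 56.8 and 56.1 CPM with AAV-A2A (log2 FC -0.43 ± 0.19, edgeR adjusted p = 0.378). Clu, the most abundant complement-related gene of astrocytes at 10715 to 17050 CPM, had a log2 FC of 0.29 ± 0.20, Vtn -0.16 ± 0.18 and Cr1l 0.04 ± 0.24.

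**Figure D2:**
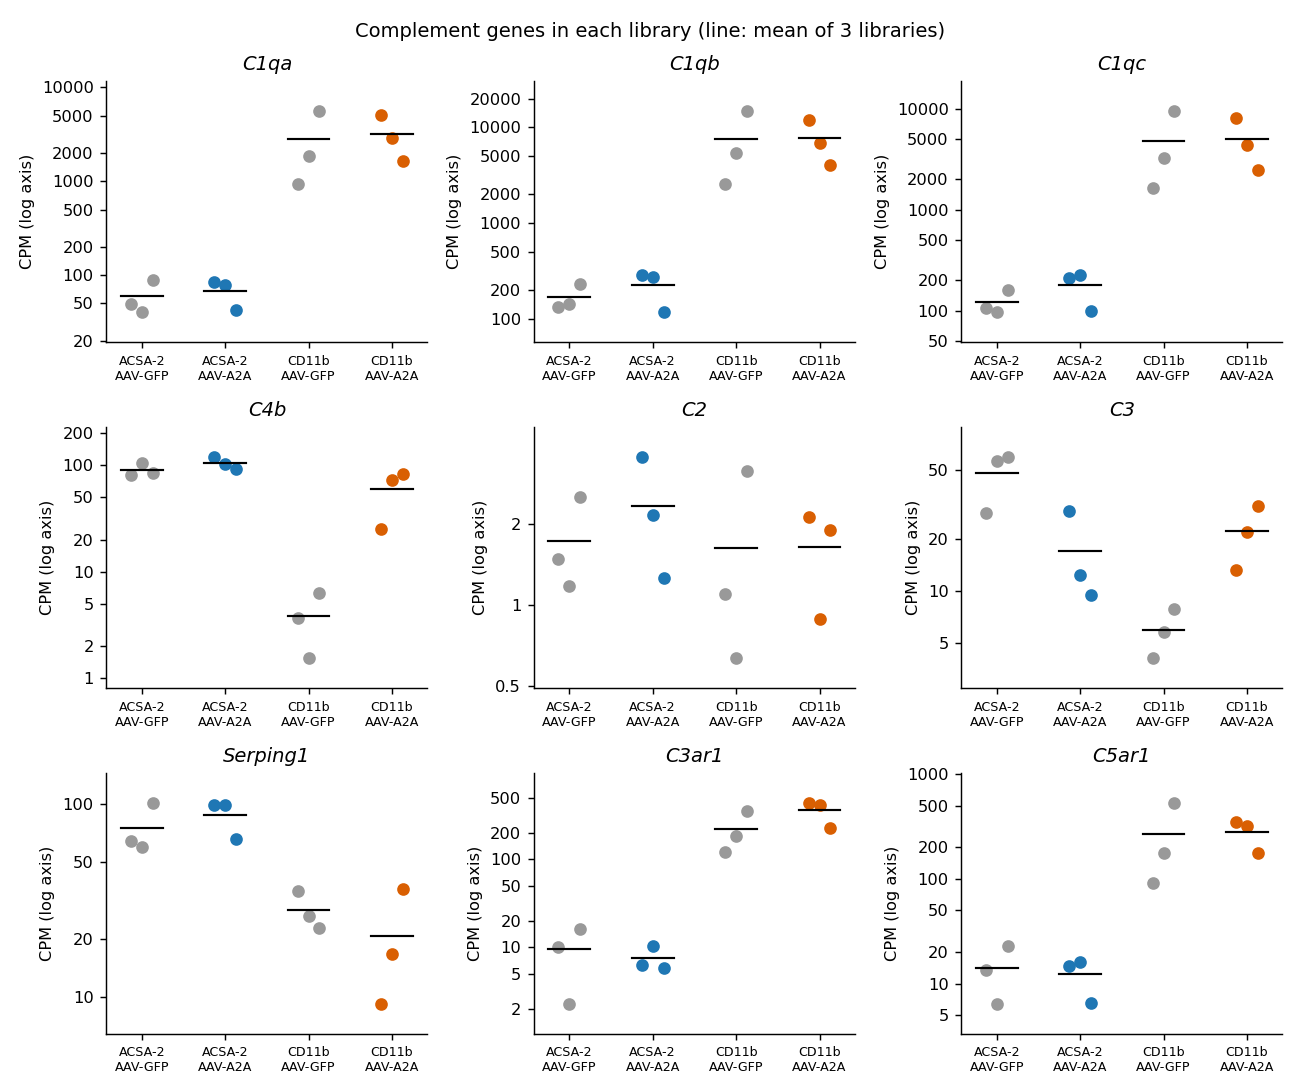
CPM (y axis, log scale) of the 9 complement genes in each of the 12 libraries, with 3 points per group and a line at the group mean. The C1q chains, C3ar1 and C5ar1 sit higher in CD11b, and C4b sits at 1.55 to 6.25 CPM in the CD11b AAV-GFP libraries and at 25.1 to 82.5 CPM in the CD11b AAV-A2A libraries.

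The third comparison followed the microglial fraction, whose vector difference was among the values that led to the set, so what follows describes it. In CD11b libraries C4b and C3 were higher with AAV-A2A, and the C1q chains, C2, C5ar1, C3ar1 and Serping1 overlapped between the groups. C4b was at 3.68, 1.55 and 6.25 CPM in GFP-2328, GFP-2329 and GFP-2331 and at 25.1, 72.4 and 82.5 CPM in A2A-2343, A2A-2344 and A2A-2347. The lowest AAV-A2A library exceeded the highest control by 4.02 times. The group means were 3.83 ± 2.35 and 60.0 ± 30.6 CPM (SD, n = 3), and the fitted log2 FC was 4.01 ± 0.71. C4b in the AAV-A2A microglia stood at 23.9, 68.8 and 78.3% of its mean level in AAV-A2A astrocytes, and C4b in the control microglia at 3.50, 1.47 and 5.94%. On the same scale the summed astrocyte markers without complement genes (13 genes) stood at 0.918, 1.90 and 1.81% with AAV-A2A and at 1.19 to 2.35% in the controls. C3 stood at 24.0 to 46.4% in the controls and 78.0 to 184% with AAV-A2A, and Serping1 at 26.1 to 40.4% and 10.6 to 41.6%. The part of astrocyte RNA in these levels was not tested.

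C3 was at 4.08, 5.74 and 7.87 CPM in the CD11b controls and at 13.2, 21.9 and 31.2 CPM with AAV-A2A, again without overlap (log2 FC 1.97 ± 0.47). The order of the AAV-A2A libraries was the same for C4b and C3, lowest in A2A-2343 and highest in A2A-2347. Counts of C4b per count of C3 went from 0.27 to 0.90 in the controls up to 1.90 to 3.31. In astrocytes the C3 difference had the opposite sign (log2 FC -1.55), and whether the fractions differ was not tested.

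Of the 9 genes, 2 (C4b and C3) had no overlap between the vector groups in CD11b, as did 23.5% of all 16949 genes. Nothing is read from this count, because the contrast had been used to choose the set. The median log2 FC of the 9 genes was 0.14, beside -0.05 for all genes.

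C1qb, the most abundant of the set, was at 2538, 5427 and 14772 CPM in the CD11b controls and 12044, 6942 and 3999 CPM with AAV-A2A, and the groups overlapped throughout. The log2 FC was 0.10 ± 0.89 for C1qb, 0.14 ± 0.89 for C1qc and 0.27 ± 0.87 for C1qa, and each turned negative when scaled to the microglia markers (-0.47, -0.44 and -0.28), a scaling that moved the median of all genes from -0.05 to -1.08. Under it C4b was at 3.44, C3 at 1.41, Serping1 at -1.21, C3ar1 at 0.04, C5ar1 at -0.32 and C2 at -0.41. The spread was shared with the microglia markers. Per 100 CPM of the geometric mean of those markers, C1qb stood at 457 to 505 CPM in the controls and at 300 to 403 CPM with AAV-A2A, and C1qc at 294 to 314 and 189 to 271 CPM. C1qa stood at 167.9 to 184 CPM in the controls and at 125 to 167.9 CPM with AAV-A2A. On this scale each AAV-A2A library lay below each control for the 3 chains, for C1qa by a narrow margin. One of the markers, Csf1r, was itself at 1551 to 7366 CPM in the controls and 9082 to 18570 CPM with AAV-A2A. It was the 1 marker of the 14 that was higher in every AAV-A2A library. Others overlapped, such as Trem2 (375 to 2338 and 643 to 1988 CPM), Tyrobp (254 to 1256 and 343 to 1020 CPM) and Aif1 (99.4 to 446 and 128 to 358 CPM). The order of the C1q chains is given for this marker mean only. Ratios to single markers were not computed, and the order need not hold for each marker taken alone.

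The proportions of the C1q chains were computed after the levels had been seen and were not tested. In CD11b, C1qb counts were 2.72, 2.92 and 2.65 times those of C1qa in the controls and 2.40, 2.40 and 2.46 times with AAV-A2A, without overlap. C1qc counts were 1.71 to 1.75 times those of C1qa in the controls and 1.51 to 1.61 times with AAV-A2A, whereas C1qb counts per C1qc count overlapped (1.55 to 1.67 and 1.49 to 1.60). In ACSA-2 libraries C1qb counts per C1qa count overlapped (2.59 to 3.56 with AAV-GFP, 2.78 to 3.52 with AAV-A2A), and C1qc counts per C1qa count were 1.80 to 2.39 and 2.34 to 2.86, higher with AAV-A2A but with a small overlap.

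C3ar1 was at 121, 187 and 360 CPM in the CD11b controls and at 442, 414 and 230 CPM with AAV-A2A (log2 FC 0.79 ± 0.57). A2A-2343 and A2A-2344 lay above all controls and A2A-2347 among them. C5ar1 was at 92.4, 176 and 534 CPM and at 346, 319 and 178 CPM (0.14 ± 0.74). Per 100 CPM of the microglia markers, C5ar1 stood at 16.4 to 17.6 CPM in the controls and 11.6 to 15.2 CPM with AAV-A2A, and C3ar1 overlapped at 11.9 to 21.8 and 14.8 to 19.6 CPM. Serping1 was at 35.3, 26.2 and 22.8 CPM in the controls and at 9.22, 16.6 and 36.3 CPM with AAV-A2A (-0.35 ± 0.48), and C2 at 0.64 to 3.13 and 0.89 to 2.11 CPM (0.08 ± 0.83). A2A-2347 was highest and A2A-2343 lowest of all CD11b libraries for Serping1.

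**Figure D3:**
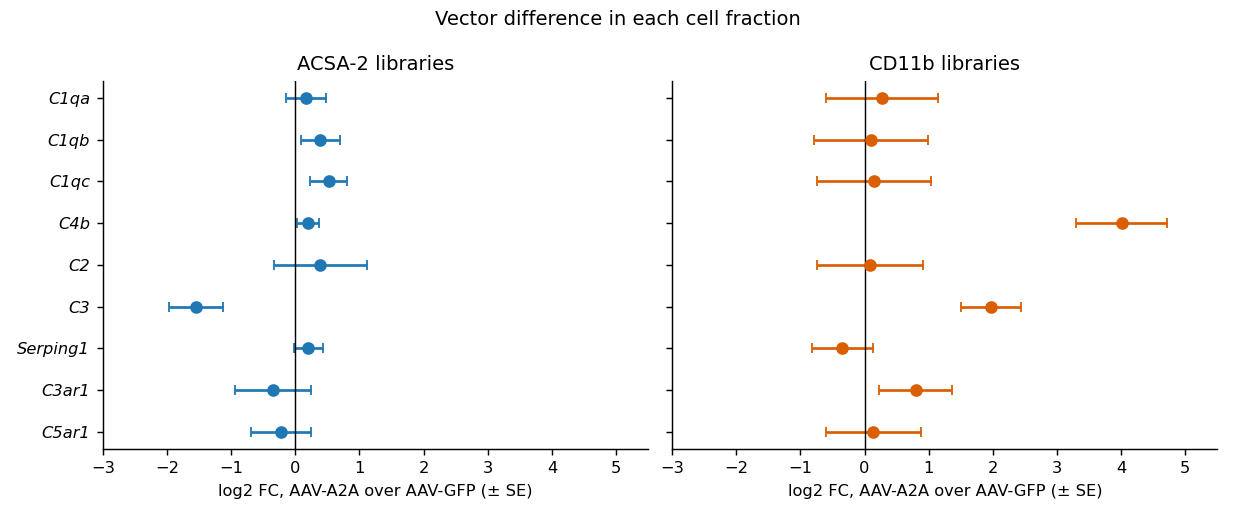
Log2 FC of each complement gene, AAV-A2A over AAV-GFP, with the SE of edgeR's fit as bars (n = 3 libraries per group), in ACSA-2 libraries (left) and CD11b libraries (right). C3 lies at -1.55 on the left and 1.97 on the right, and C4b at 0.20 and 4.01.

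**Figure D4:**
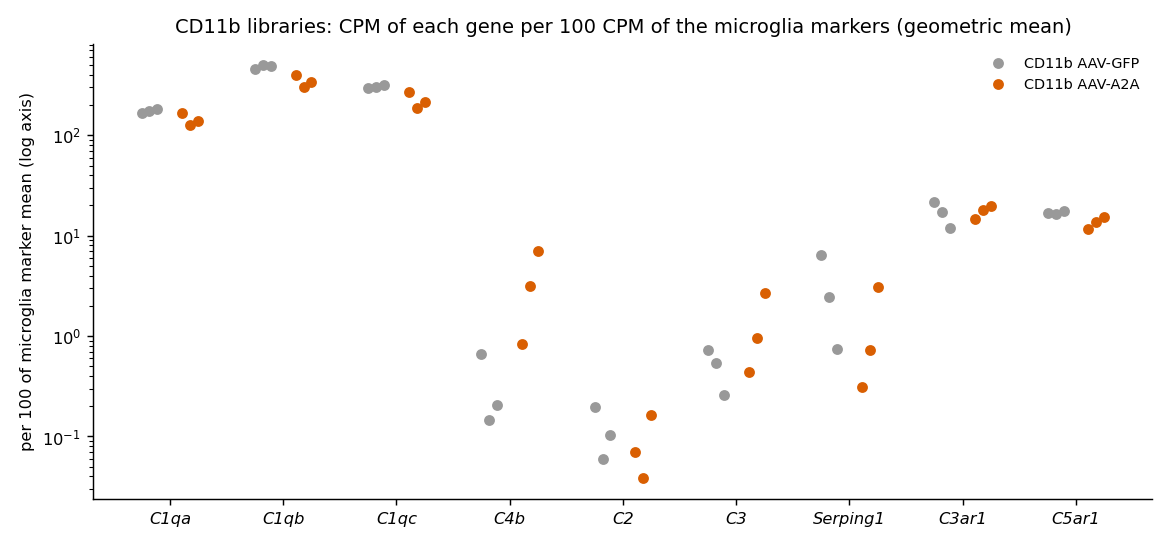
CPM of each complement gene per 100 CPM of the geometric mean of the microglia markers (y axis, log scale) in the 3 AAV-GFP and 3 AAV-A2A CD11b libraries, 1 point per library. C4b sits at 0.14 to 0.66 in the controls and 0.84 to 7.03 with AAV-A2A, and C3 overlaps on this scale, at 0.26 to 0.73 and 0.44 to 2.66.

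The markers of other cells varied widely among the CD11b libraries. The choroid plexus list (11 genes) summed to 125847, 97342.4 and 158 CPM in the controls and to 107, 28.5 and 64315.3 CPM with AAV-A2A. Within the choroid-rich libraries C4b was 31.5 times and C3 6.35 times higher in A2A-2347 than in the mean of GFP-2328 and GFP-2329, and within the choroid-poor libraries C4b was 7.80 times and C3 2.23 times higher in the mean of A2A-2343 and A2A-2344 than in GFP-2331. In the fit without the choroid-rich libraries the log2 FC was 2.95 for C4b and 1.16 for C3, and the C1q chains were at -0.59 to -0.45. The C1qb level within these subsets was 1.00 times the control in the choroid-rich and 0.643 times in the choroid-poor libraries. The erythrocyte list (7 genes, led by Hbb-bs) summed to 931 to 6653 CPM in the controls and 63.5 to 213 CPM with AAV-A2A, without overlap. The sums overlapped for the endothelial list (10 genes, led by Bsg, 1761 to 6939 and 1136 to 3166 CPM), the ependymal list (9 genes, led by Tm4sf1, 294 to 923 and 97.2 to 299 CPM) and the neuron list (12 genes, led by Ppp3ca, 122 to 314 and 74.9 to 124 CPM). Single markers were lower in every AAV-A2A library for 5 of 7 erythrocyte, 4 of 10 endothelial, 3 of 9 ependymal and 6 of 12 neuron genes. Over all 16949 genes tested, 2279 were. No marker of these 4 lists was higher in every AAV-A2A library.

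The border macrophage list (8 genes, led by F13a1) summed to 67.5 to 230 CPM in the controls and 167 to 300 CPM with AAV-A2A, with 1 of 8 genes higher in every AAV-A2A library. The monocyte and neutrophil list (10 genes, led by Ngp) stood at 157 to 614 and 179 to 581 CPM, the mural and fibroblast list (12 genes, led by Vtn) at 946 to 1835 and 940 to 1860 CPM, the oligodendrocyte list (11 genes, led by Cryab) at 287 to 613 and 256 to 345 CPM, and the astrocyte list at 722 to 5781 and 443 to 3479 CPM. Clu, which is on the astrocyte list, made up 363 to 5074 and 166 to 2933 CPM of these sums. The part of these cells in the C4b and C3 differences was not tested.

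Gene length moved with the vector as well. Over all genes tested in CD11b, the median log2 FC was -0.71 in the shortest of 5 equal length classes (exons up to 2006 bases), -0.27, 0.05 and 0.33 in the next ones, and 0.39 in the longest. The C1q genes, at 1040 to 1931 bases, lie in the shortest class, and C3 (5143 bases) and C4b (5695 bases) in the second longest. In ACSA-2 libraries the same medians ran from 0.15 to -0.12. With each library's trend on length and GC content removed, an alternative added after the data were seen, the CD11b log2 FC was 3.50 for C4b, 1.62 for C3, 0.87 for C1qa, 0.71 for C1qb, 0.52 for C1qc, 0.46 for C5ar1, 0.81 for C3ar1 and 0.01 for Serping1. In ACSA-2 libraries the same removal moved C4b from 0.20 to 0.50 (edgeR adjusted p = 0.251) and C3 from -1.55 to -1.32 (edgeR adjusted p = 0.109).

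**Figure D5:**
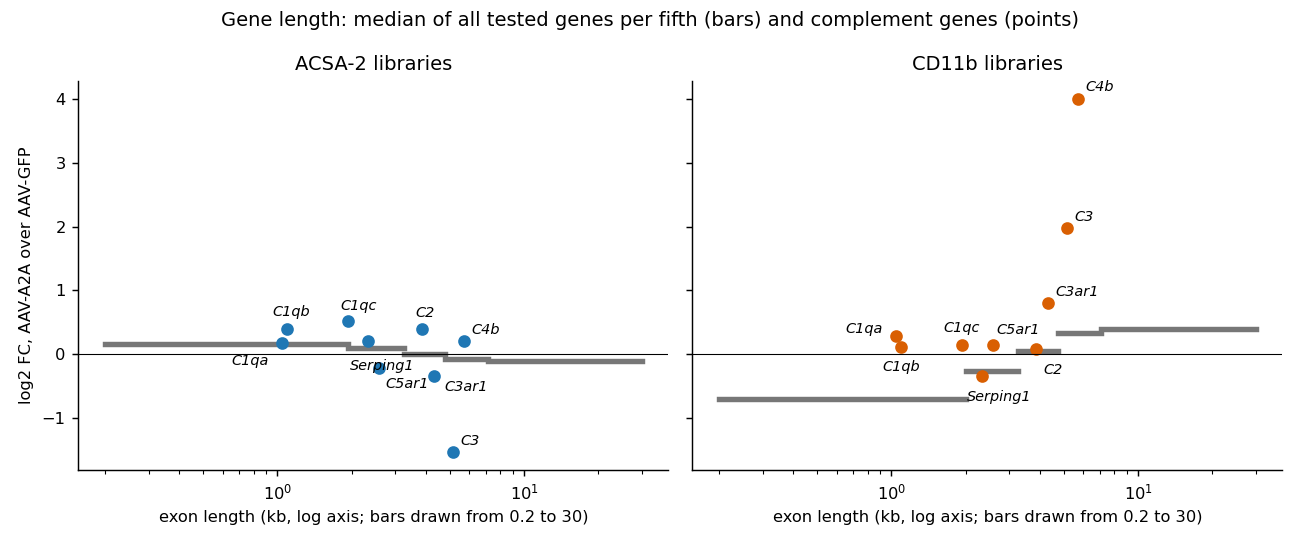
Log2 FC of AAV-A2A over AAV-GFP (y axis) against exon length in kb (x axis, log scale) in ACSA-2 (left) and CD11b (right) libraries, with bars at the median of all tested genes in each of 5 length classes and points for the complement genes. In CD11b the bars climb from -0.71 to 0.39, the C1q chains lie above the bar of the shortest class, and C4b (4.01) and C3 (1.97) lie above that of the second longest.

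Leaving out single libraries kept C4b between 3.62 (without GFP-2329) and 4.68 (without GFP-2331), and C3 between 1.71 (without A2A-2347) and 2.33 (without GFP-2331). The C1q chains did not keep a direction: without GFP-2331 the log2 FC was 1.18 to 1.42, and without A2A-2343 it was -0.48 to -0.29. C5ar1 and C2 did not keep a direction either. C5ar1 was at 1.28 without GFP-2331, -0.29 without GFP-2328, -0.13 without GFP-2329, -0.09 without A2A-2343 and -0.65 without the choroid-rich libraries, and C2 at 1.12, -0.18, -0.32 and -0.24 in the first 4 of these settings, and also below 0 in the last.

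Among the other complement genes in CD11b, edgeR called 0 of 27 tested, against 0% of all genes, and 4 had an unadjusted p under 0.05 (Hc, Itgam and Itgax among them), against 16%. DESeq2 called 2 of 40 (Hc and Itgax), against 2.9%, and 4 of the 27 had no overlap between groups, against 23.5%. Itgam, the CD11b antigen on which the fraction was selected, was at 27.9, 55.3 and 100.2 CPM in the controls and at 144, 298 and 175 CPM with AAV-A2A (log2 FC 1.81 ± 0.58). Itgax, the chain of complement receptor 4, named with Hc after its values were seen, was at 1.14, 1.35 and 4.34 CPM and at 17.5, 21.1 and 22.3 CPM (3.20 ± 0.68). Hc was at 3.33, 4.88 and 5.15 CPM and at 0.551, 0.305 and 1.71 CPM (-2.30 ± 0.76). These 3 genes did not overlap between the groups. C5ar2 (1.54 ± 0.73) and Itgb2 (1.15 ± 0.73) were also at positive values, while Cr1l (0.05 ± 0.38), Csmd3 (0.33 ± 0.38), Colec12 (0.81 ± 0.46), Vtn (-0.02 ± 0.62), Clu (-1.33 ± 1.33), Cd55 (-1.40 ± 1.33) and Cd59a (-2.03 ± 1.70) were spread on both sides of 0.

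Over the 6 CD11b libraries, among the 11180 genes averaging 5 CPM or more, the genes whose log2 CPM followed C4b most closely were Axl (Pearson r = 0.998), Btaf1 (0.994) and Lrig2 (0.994). For C3 they were Zmynd15 (0.997), Nol9 (0.997) and Scube1 (0.991), and for C1qb they were Trem2 (0.999), C1qc (0.999) and Gtf2h2 (0.998). C4b and C3 had r = 0.957 with each other over the 6 CD11b libraries and -0.09 over the 6 ACSA-2 libraries. These correlations describe 6 libraries that share vector groups, depth and cell content.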

How the data were processed

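RNA sequencing libraries of ACSA-2 and CD11b hippocampal fractions were analysed, 12 in all. Per the submitters' processing notes and the study's methods, full-length cDNA was amplified without molecular identifiers, reads of 50 bases were trimmed with cutadapt 1.10, aligned to mm10 with STAR 2.5.3 and counted with HTSeq 0.6.1p1, keeping unique reads on single genes. The raw counts per Ensembl gene were used as deposited by the authors, and the 25 unnamed empty columns were not used. Genes were named and measured with GENCODE M21 (GRCm38).

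Each fraction was fitted on its own in edgeR 4.0.16 under R 4.3.3 by quasi-likelihood (TMM, filterByExpr, robust dispersion), and the AAV-GFP libraries of both fractions together. Genes were called at Benjamini-Hochberg adjusted p under 0.05 over all tested genes and |log2 FC| over 0.32. Alternatives were DESeq2 1.42.0, voom weights in limma 3.58.1, different filters and scalings, a fit of all 12 libraries and each library left out. The tests were checked on simulated counts, in which unchanged genes had the same mean level in all libraries of a fraction. This check cannot show how the tests behave where libraries differ in cell content, as in CD11b. Replicate libraries differed beyond sampling noise.

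The 9 genes, the other complement genes (48) and the marker lists were chosen with earlier results of these data known. Named beside the 9 are other complement genes that were called or had a mean of at least 20 CPM in controls, C4a, genes sharing exons with a member, the most abundant marker of each list, and the 3 genes most like C4b, C3 and C1qb. One gene of the lists is not reported here.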

Additional observations from a re-analysis of the deposited data

How the results depend on the processing

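Of the complement genes, the count called in astrocytes moved from 0 to 1 with DESeq2 and in edgeR with no filter on low counts, and to between 0 and 1 when single libraries were left out (1 without A2A-309), each time through C3. In CD11b the count moved from 0 to 2 with DESeq2, from which nothing is read because that contrast was used to choose the genes. Between fractions 8 were called, and 6 to 8 under the alternatives. Of the other complement genes, the count moved from 0 to 2 with DESeq2 in both fractions, to between 0 and 1 in astrocytes when single libraries were left out (1 without A2A-313), and between fractions from 9 to between 5 and 13 (5 without GFP-306, GFP-307 or GFP-2329, 13 without GFP-2331). Signs turned in astrocytes for C1qa (0.17, left-out range -0.046 to 0.54, lowest without GFP-306), and for C3ar1 (-0.35, range -0.81 to 0.23) and C5ar1 (-0.23, range -0.57 to 0.25) without GFP-307, and for C5ar1 without A2A-313 (0.04). Between fractions C2 turned from -0.10 to 0.31 without GFP-307, 0.19 without GFP-2328, 0.32 without GFP-2329 and 0.99 without the choroid-rich libraries, and its lowest value was -1.21 without GFP-2331. In CD11b the signs of the C1q chains, C5ar1 and C2 turned, with the values given above. The causes were not tested. No paired analysis was possible because the groups share no replicate numbers, and since the numbers of the fractions come from different schemes, they do not show whether libraries share animals. Depth was at least 33937067 counts in each library, and edgeR's common coefficient of variation was 0.52 in ACSA-2, 0.71 in CD11b and 0.61 between fractions.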
